A study of Mus musculus with 42 samples.

Results

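The genes examined encode TBP-associated factors and TBP-related proteins of the general transcription machinery, and comprised 9 of the 27179 genes of an RNA-seq count table: the germ-cell paralogs Taf4b, Taf7l, Taf9b and Tbpl1, their general counterparts Taf4, Taf7, Taf9 and Tbp, and Taf1, which has no germ-cell counterpart among them. They were chosen by name, their gene IDs were matched to symbols, and all 9 were found. The libraries came from cells enriched by the study as spermatogonia, from C57BL/6J male mice at 10 days post partum (dpp). There were 3 libraries in each of 4 groups: Thy1+ control, Thy1+ CKO, c-Kit+ control and c-Kit+ CKO. The CKO carried Ddx4-Cre with 1 floxed and 1 null allele of the chromatin remodeler gene Chd8 (Ddx4-Cre; Chd8 F/-), and the control carried the same Cre with 1 floxed and 1 wild-type allele (Ddx4-Cre; Chd8 +/F). Ddx4-Cre acts in germ cells from before birth, so that the germ cells of both genotypes had seen the recombinase, and those of the control were heterozygous after recombination. By these genotypes, somatic cells carried 1 null allele in the CKO and no null allele in the control. c-Kit+ cells were retained first with magnetic beads, and Thy1+ cells were then taken from what had not bound. The study's methods state 3 male pups for each analysis, without stating whether a library was 1 pup or a pool, so p-values measure the spread between these libraries, which may be technical.

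TFIID is the multi-subunit complex that recognises core promoters and starts the assembly of RNA polymerase II and its general factors. It contains TBP, which binds the TATA element, and a set of TBP-associated factors (TAFs), of which TAF1 is the largest and serves as a scaffold. Some subunits have paralogs that are abundant in germ cells: TAF4B, needed for the long-term maintenance of spermatogenesis in mice, TAF7L, needed for full male fertility, and TBPL1, a TBP relative that does not bind TATA elements and is needed for spermatid development. TAF9B is a close relative of TAF9, a histone-fold subunit that also belongs to the SAGA coactivator.

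The totals of the 12 libraries ran from 32266861 to 45396233 counts, and each member had 1372 to 21399 counts in every library. Counts summed over all exons of Chd8 cannot show the deletion of a few exons, and its level of 258 to 278 CPM (counts scaled to library size after TMM normalisation) in control and CKO Thy1+ libraries other than 1 CKO library at 298 CPM, and of 263 to 316 CPM in c-Kit+ libraries, did not check the labels. Markers of somatic cells were present in all groups. The summed level of 36 marker genes of 8 somatic cell types had a median of 15650 CPM in Thy1+ control (12080 to 16480), 20020 CPM in Thy1+ CKO (13920 to 21020), 4004 CPM in c-Kit+ control (3329 to 4428) and 7797 CPM in c-Kit+ CKO (6694 to 8262), and none of the 36 was at 0 in all libraries. The sum of 7 germ cell markers had a median of 1497, 1117, 2322 and 1971 CPM in the same order of groups. Stromal markers alone had a median sum of 13610 CPM in Thy1+ control and 2095 CPM in c-Kit+ control. Markers of differentiating and of undifferentiated spermatogonia had median sums of 686.6 and 567.8 CPM in Thy1+ control. In c-Kit+ control these were 1424 and 255.6 CPM. The c-Kit+ control had the lowest median of somatic markers and the highest of germ cell markers, and the part of this in the differences below was not tested beyond the scaling to germ cell markers described with each result. In such bulk samples, fewer cells of a type and less RNA per cell cannot be told apart.

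Of the 9 members, Taf7l, Taf9b and Taf1 lie on chromosome X (mm10). Taf7l covers X 134460116 to 134476490, Taf9b X 106206874 to 106221158 and Taf1 X 101532735 to 101601789. The other members lie on autosomes: Taf4b (14783245 to 14900359) and Taf7 (37640491 to 37644204) on chromosome 18, Taf4 (179912146 to 179976646) on chromosome 2, Taf9 (100651343 to 100666413) on chromosome 13, Tbpl1 (22703877 to 22731447) on chromosome 10 and Tbp (15499888 to 15517427) on chromosome 17.

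Levels per length were compared first, as RPKM (CPM per kilobase of exon). In the c-Kit+ control, Taf7l stood above the other members at 271 ± 40.3 RPKM (mean ± SD, n = 3). Taf9 followed at 94.5 ± 4.11 RPKM and Taf9b at 64.0 ± 4.84 RPKM. Taf1 (45.9 ± 4.02 RPKM) and Taf7 (43.8 ± 1.75 RPKM) differed by less than their spread, and so did Tbp (34.6 ± 1.99 RPKM) and Taf4b (33.8 ± 4.61 RPKM). Tbpl1 (21.7 ± 1.16 RPKM) and Taf4 (15.5 ± 1.64 RPKM) were the lowest of the 9. In the Thy1+ control the order was similar, with Taf7l at 158 ± 38.5 RPKM, Taf9 at 76.8 ± 10.7 RPKM and Taf9b at 42.8 ± 9.33 RPKM. Taf9b, Taf7 (39.2 ± 5.72 RPKM) and Taf1 (38.6 ± 4.49 RPKM) then differed by less than their spread, as did Taf4b (21.0 ± 3.33 RPKM) and Tbpl1 (18.9 ± 1.84 RPKM), while Taf4 was again the lowest at 12.4 ± 2.23 RPKM. The Taf9 count is an upper limit, while its level per length may lie above or below that of Taf9 itself. Of the 2126 bases counted for Taf9, 792 (37.3%) lie outside its RefSeq exons, and all 792 lie in exons of Ak6, an adenylate kinase gene that has no count of its own in the table. No other member shared more than a few exonic bases with another counted gene: Tbpl1 overlapped Slc2a12 on the opposite strand by 4 bases. No window of 50 bases was shared between the exons of Taf4b and Taf4, Taf7l and Taf7, Taf9b and Taf9, or Tbpl1 and Tbp, so that reads of a pair of paralogs could be told apart at that length.

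Because TBP and TBPL1 are set apart by the TATA element, the 250 bases before the RefSeq start (GRCm38.p6, the assembly of mm10) were searched on both strands for TATAAA, which 12.4% of 32851 such windows held, and for the E-box CACGTG, which 6.02% held. The windows of Taf7l, which was called between c-Kit+ genotypes, of Taf9b, which was called between control populations in a fit that 1 library could undo, and of Tbpl1, which was called in no comparison, are shown for the start at the edge of each counted gene, 5′ to 3′ along the gene, with any match in capitals.
Taf7l (chrX:134476491-134476740, minus strand): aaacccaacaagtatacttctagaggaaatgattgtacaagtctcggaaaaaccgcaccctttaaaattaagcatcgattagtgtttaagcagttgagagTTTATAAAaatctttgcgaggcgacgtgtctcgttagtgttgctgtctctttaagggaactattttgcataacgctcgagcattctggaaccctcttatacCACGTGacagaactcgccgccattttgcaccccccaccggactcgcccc
Taf9b (chrX:106221159-106221408, minus strand): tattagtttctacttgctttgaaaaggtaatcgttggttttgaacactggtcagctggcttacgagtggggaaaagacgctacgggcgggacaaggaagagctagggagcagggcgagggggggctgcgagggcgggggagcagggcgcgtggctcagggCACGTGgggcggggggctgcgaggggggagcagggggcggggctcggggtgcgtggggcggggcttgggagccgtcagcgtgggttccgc
Tbpl1 (chr10:22731448-22731697, minus strand): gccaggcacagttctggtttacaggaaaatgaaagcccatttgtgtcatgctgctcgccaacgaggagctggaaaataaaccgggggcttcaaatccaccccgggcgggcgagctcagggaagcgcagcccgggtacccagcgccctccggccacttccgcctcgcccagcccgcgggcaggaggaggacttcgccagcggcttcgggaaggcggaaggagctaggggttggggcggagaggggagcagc
The Taf7l window held both motifs, with TATAAA on both strands in 1 overlapping run. This run lies closer to the 5′ end of the window than to the start of the gene. The Taf9b window held CACGTG, and the Tbpl1 window held neither. The windows had 14, 20 and 19 CpG dinucleotides in the same order, against a median of 6 over all windows (interquartile range 2 to 16). A second RefSeq start of Taf9b, 1316 bases further along the gene, had a window with neither motif and with 12 CpG dinucleotides. The windows of Tbp, Taf1 and Taf4 and both windows of Taf9 held neither motif. Their CpG dinucleotides numbered 11 (Tbp), 16 (Taf1), 40 (Taf4), and 29 and 36 (Taf9), so that high numbers were not particular to the germ-cell paralogs. The windows of Taf4b and Taf7 were not analysed here. Such matches describe the letters only.

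Whether loss of Chd8 changed these genes was asked first in c-Kit+ spermatogonia, in which differentiation has started. There Taf7l and Taf4b fell, by 1.79-fold and 1.54-fold, and were the 2 members called, a call needing FDR under 0.05 together with a log2 fold change beyond 0.5 in either direction (edgeR's quasi-likelihood F test on 17134 genes, adjusted by Benjamini and Hochberg). Of all genes tested, 7.41% were called lower. Taf4, Taf7, Tbp and Taf1 passed the FDR with smaller differences. Taf9b, Taf9 and Tbpl1 did not pass it.

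Taf7l had 463, 612 and 497 CPM in the c-Kit+ control libraries of replicates 1, 2 and 3, and 298, 319.7 and 299 CPM in the CKO libraries. All CKO libraries lay below all control libraries, and their spread was smaller. The log2 fold change was -0.84 (SE 0.09, FDR = 0.000267). Taf4b, which pairs with TAF12 through a histone fold as TAF4 does, had 147, 193 and 181 CPM in control and 115, 119 and 119 CPM in CKO libraries. These groups did not overlap either, and the log2 fold change was -0.62 (SE 0.09, FDR = 0.000777). When libraries were scaled to the 7 germ cell markers in place of TMM, a scaling that moved the median of all genes from 0.01 to 0.32 on the log2 scale, Taf7l was still called lower (-0.52, FDR = 0.000623) and Taf4b was lower by less than the fold limit (-0.30, FDR = 0.0472). With TMM, all 7 markers were themselves below 0 here (median -0.27), and 1 was called lower, where 7.41% of all genes were. A genotype effect on these markers and a change in the share of germ cells cannot be told apart by this scaling.

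The general members Taf7, Taf4, Taf1 and Tbp moved less than Taf7l and Taf4b, and more than Taf9b and Tbpl1. Taf7, whose product regulates TAF1, had 150.5, 144 and 139 CPM in control and 120.4, 119 and 105 CPM in CKO c-Kit+ libraries, and a log2 fold change of -0.39 (SE 0.07, FDR = 0.00204). Taf4 had 68.67, 61.42 and 75.88 CPM in control and 52.1, 54.7 and 58.7 CPM in CKO libraries (-0.37, SE 0.09, FDR = 0.00876). Neither pair of groups overlapped, and both genes were under the fold limit. Taf1 had 354, 407 and 348 CPM in control and 284, 293 and 284 CPM in CKO libraries, a log2 difference of -0.42 (SE 0.07, FDR = 0.00111). Tbp had 66.4, 65.1 and 59.5 CPM in control and 53.6, 53.5 and 53.3 CPM in CKO libraries, a log2 difference of -0.31 (SE 0.07, FDR = 0.00652) that became 0.00 when scaled to germ cell markers. Scaled to germ cell markers, Taf7 (-0.0815, FDR = 0.550), Taf4 (-0.0651, FDR = 0.748) and Taf1 (-0.11, FDR = 0.352) did not pass the FDR either. With TMM and the FDR alone, 6 of the 9 members were lower, against 18.3% of all genes. The same 6 were those whose CKO libraries all lay below the control libraries, as did 20.6% of all genes.

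The other germ-cell paralogs stood closer to their control levels. Taf9b had 166, 185 and 161 CPM in control and 152, 166 and 153 CPM in CKO c-Kit+ libraries, and the groups overlapped (log2 fold change -0.18, SE 0.07, FDR = 0.0713). Taf9 had 206, 206 and 191 CPM in control and 179, 193 and 188 CPM in CKO libraries (-0.16, SE 0.06, FDR = 0.0552). Tbpl1 had 60.1, 66.2 and 60.8 CPM in control and 58.9, 63.6 and 61.3 CPM in CKO libraries, a log2 difference of -0.08 (SE 0.07, FDR = 0.394). The sign of all 3 turned when libraries were scaled to germ cell markers, to 0.14, 0.15 and 0.23. The 4 germ-cell paralogs had a median log2 fold change of -0.40 and the 5 general members one of -0.37, against 0.01 for all genes tested. With the replicate number as a block, Taf9b (FDR = 0.0219) and Taf9 (FDR = 0.0373) also passed the FDR, at -0.18 and -0.16, where 20.2% of all genes did so with CKO lower. Beside these values, 24 of 34 tested somatic markers were called higher and 0 lower in this comparison, against 14.8% and 7.41% of all genes. Their part in the result was not tested.

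**Figure D1:**
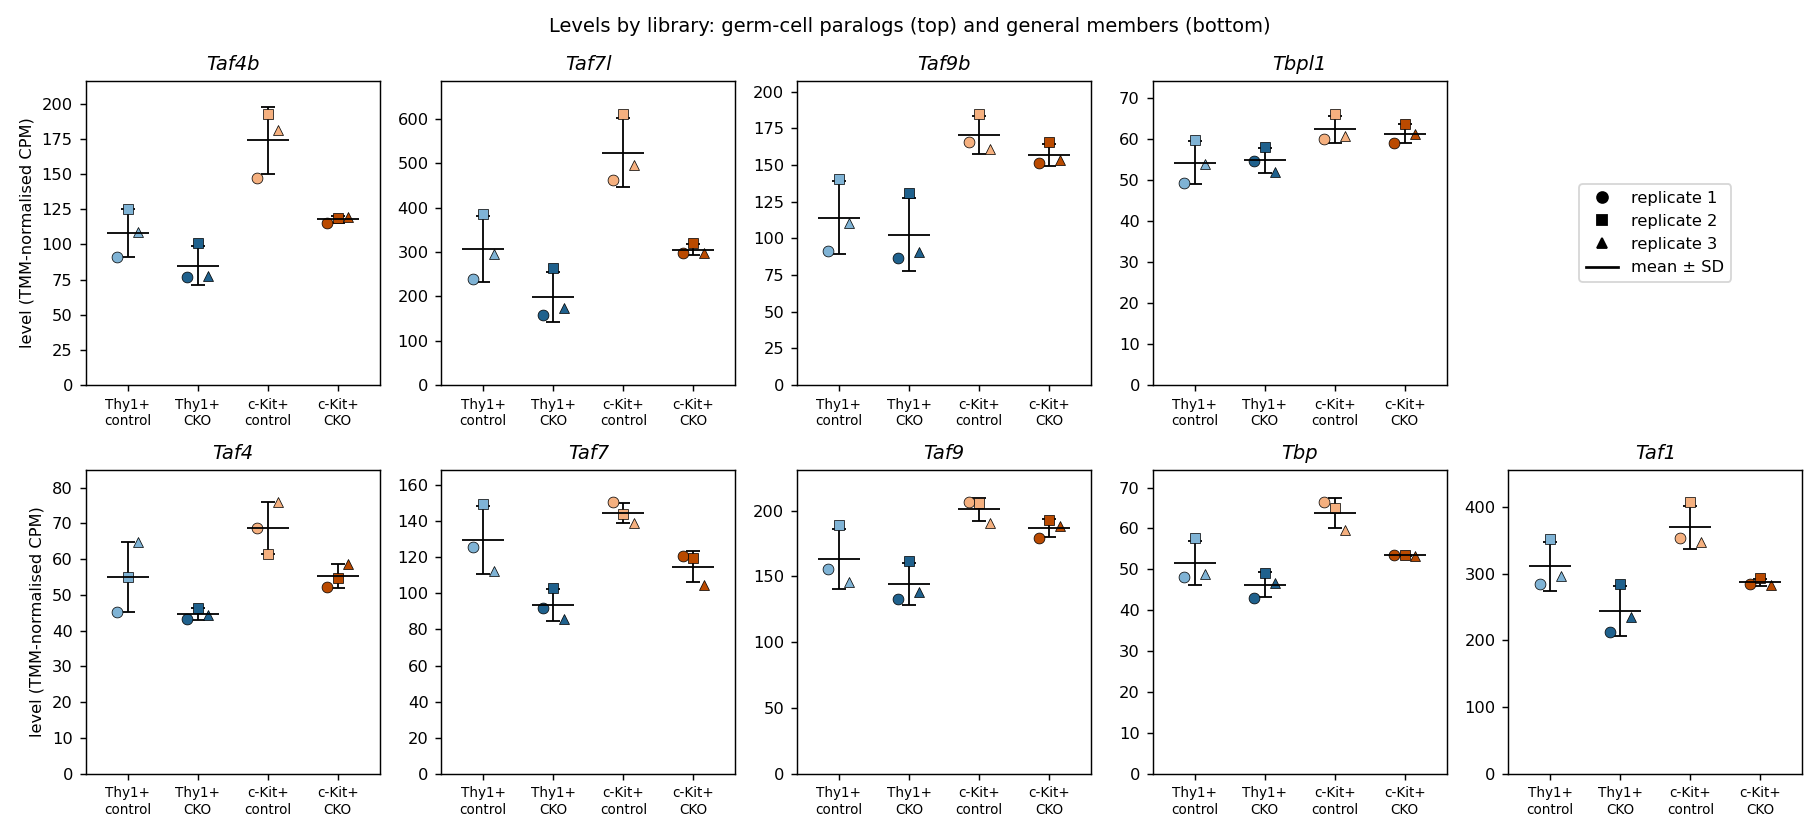
Level of each member in CPM after TMM normalisation (vertical axes, each from 0) in the 12 libraries, with the germ-cell paralogs above and the general members below. Symbols mark the replicate number and lines the mean ± SD of 3 libraries. In c-Kit+ cells the CKO libraries of Taf7l (298 to 319.7 CPM) lie below the control libraries (463 to 612 CPM), while those of Tbpl1 overlap.

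In Thy1+ cells, which the study names undifferentiated spermatogonia, no member was called without a replicate block. Nor was any of the 17416 genes tested called (0% called lower, lowest FDR 0.141, 2151 genes at an unadjusted p under 0.05 by edgeR). The edgeR exact test and DESeq2 called 294 and 378 genes, none of them a member. Taf7l had 238, 386 and 295 CPM in control and 158, 263 and 173 CPM in CKO libraries. In each genotype replicate 2 was the highest and replicate 1 the lowest, and the CKO library of replicate 2 lay above the control library of replicate 1, so that the groups overlapped while CKO was lower than control at each replicate number. The log2 fold change was -0.62 (SE 0.24, FDR = 0.371). Replicate 2 also had the highest sum of germ cell markers in both genotypes, 2101 CPM in control and 1745 CPM in CKO, and the lowest sum of somatic markers. The libraries of replicate 1 had the highest sums of Sertoli cell markers, at 1882 CPM in control and 2456 CPM in CKO, against 433.8 to 906.3 CPM in the other 4 Thy1+ libraries.

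Libraries of the same replicate number deviated together, and with this number as a block Taf7l was called lower in Thy1+ CKO cells (log2 fold change -0.63, SE 0.05, FDR = 1.58e-06, edgeR's quasi-likelihood test), the only member so called, where 4.92% of all genes were called lower. In the blocked fit scaled to germ cell markers, a combination chosen after seeing the data, it was not called (-0.20, SE 0.13, FDR = 0.173). The blocked fit with TMM also called higher 6 of 7 Sertoli cell, 2 of 4 macrophage, 1 of 4 mast cell and 1 of 2 tested erythroid markers and none of the other somatic markers, and it called lower 2 of 7 germ cell, 4 of 5 undifferentiated and 1 of 4 differentiating spermatogonia markers. Of all genes, 3.2% were called higher in this fit and 4.92% lower. The part of these markers in the result was not tested. Taf4b had 90.8, 125 and 109 CPM in control and 76.5, 101 and 77.4 CPM in CKO libraries, and a blocked log2 fold change of -0.34 (SE 0.06, FDR = 0.000597), under the fold limit. Taf7 had 126, 149.8 and 113 CPM in control and 92.1, 103 and 85.7 CPM in CKO libraries, and was the only member whose Thy1+ groups did not overlap, as 10.7% of all genes did with CKO lower. Its blocked log2 fold change was -0.45 (SE 0.06, FDR = 2.63e-05). Taf1 had 284, 352 and 297 CPM in control and 212, 285 and 235 CPM in CKO libraries (blocked log2 fold change -0.35, SE 0.05, FDR = 8.58e-05). Taf4 and Taf9 also passed the FDR in the blocked fit, at -0.28 and -0.17, which made 6 of 9 members lower by the FDR alone against 13.6% of all genes, and Taf9b (-0.15), Tbp (-0.15) and Tbpl1 (0.02) did not. Of these, Taf9 had 146 to 189 CPM in control and 133 to 162 CPM in CKO libraries, Tbp had 48.1 to 57.7 and 43.0 to 49.1 CPM, and Tbpl1 had 49.2 to 59.7 and 51.9 to 57.9 CPM, so that all 3 overlapped. Taf4 had 45.2, 55.0 and 64.9 CPM in control and 43.2, 46.5 and 44.5 CPM in CKO libraries, an overlap of a single control library with the CKO group. Scaling to germ cell markers without a block, which moved the median of all genes from 0.02 to 0.48, turned the sign of Taf4b (0.09), Taf4 (0.15), Taf9b (0.28), Taf9 (0.28), Tbp (0.31) and Taf1 (0.09), left Taf7 at -0.0017 and Taf7l at -0.21, and called none.

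**Figure D2:**
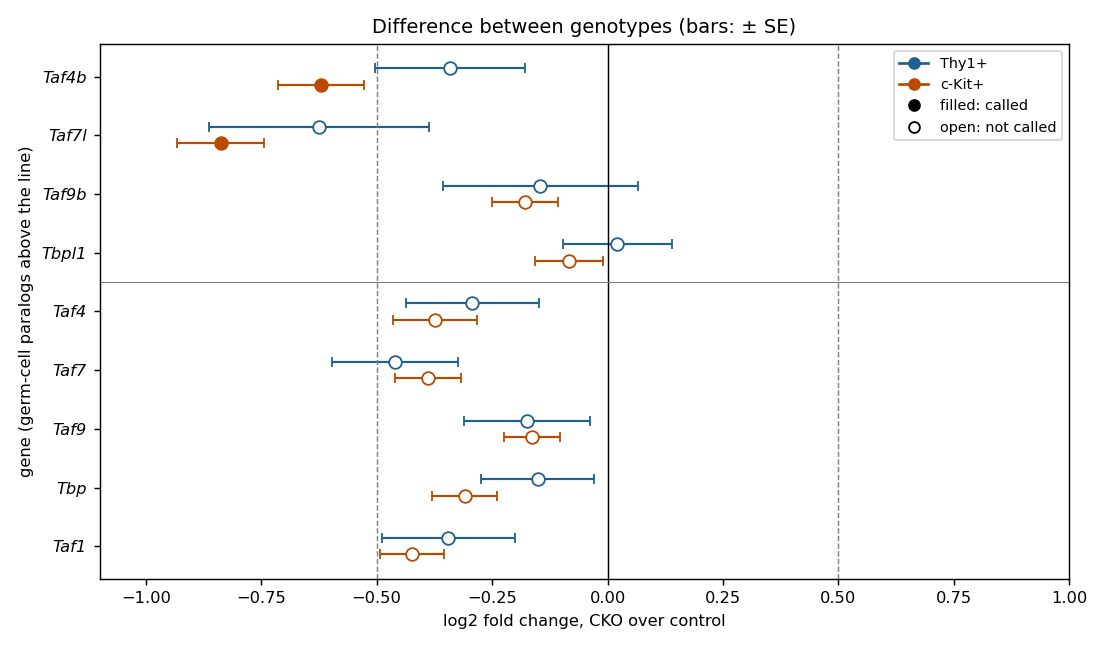
Log2 fold change of CKO over control (horizontal axis) for each member in Thy1+ and c-Kit+ cells, with bars of ± SE from fits without a replicate block; dashed lines mark the fold limit of 0.5. Only Taf4b (-0.62) and Taf7l (-0.84) in c-Kit+ cells are called, and the Thy1+ bars are wider than the c-Kit+ bars for every member; signs of Taf9b, Taf9, Tbpl1 and Tbp in c-Kit+ cells turn when scaled to germ cell markers, as do those of 6 members in Thy1+ cells.

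The effect of Chd8 loss was then compared between the populations in a single fit of the 12 libraries. No member passed the test, nor did any of 18002 genes (0% called lower and 0% higher; 1804 genes at an unadjusted p under 0.05 by edgeR; DESeq2 called 20 lower and 44 higher, none of them a member). The blocked interaction fit called 24 genes lower and 422 higher, and no member was among them. The c-Kit+ effect minus the Thy1+ effect was -0.22 (SE 0.19, FDR = 0.757) for Taf4b and -0.15 (SE 0.28, FDR = 0.900) for Taf7l on the log2 scale. The remaining members lay between -0.09 (Tbp) and 0.13 (Taf7), each within its SE. The call of Taf4b and Taf7l in c-Kit+ cells alone, in the fits without a block, was thus not shown to differ between the populations.

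**Figure D3:**
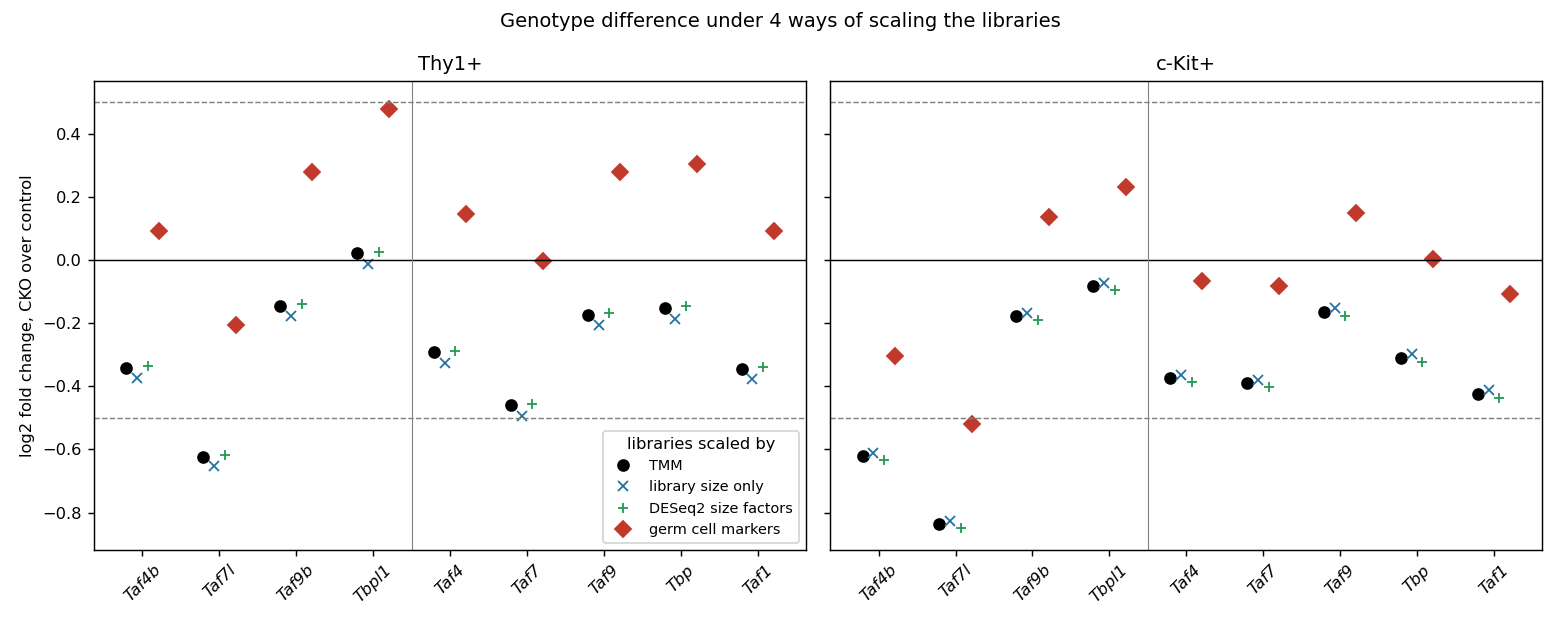
Log2 fold change of CKO over control (vertical axis) for each member in Thy1+ and c-Kit+ cells after 4 ways of scaling the libraries; dashed lines mark the fold limit of 0.5. TMM, library size and DESeq2 size factors nearly coincide, and scaling to 7 germ cell markers moves every member up, with Taf7l in c-Kit+ cells (-0.52) the only value left past the limit.

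Between the populations of control mice, the question was how these genes differ between the cells the study names undifferentiated and differentiating spermatogonia. Taf7l, Taf4b and Taf9b were called lower in Thy1+ than in c-Kit+ cells, by 1.68-fold, 1.58-fold and 1.47-fold, and these were 3 of the 4 germ-cell paralogs. Of 17350 genes tested, 7.08% were called lower, and 13.6% with the FDR alone, by which the same 3 members passed. None of the 5 general members was called. Thy1+ over c-Kit+, Taf4b differed by -0.66 on the log2 scale (SE 0.14, FDR = 0.00691), Taf7l by -0.75 (SE 0.17, FDR = 0.0111) and Taf9b by -0.56 (SE 0.15, FDR = 0.0176), by edgeR's quasi-likelihood test. In Taf9b the Thy1+ control libraries had 91.1, 140.4 and 111 CPM, all below the 161 to 185 CPM of the c-Kit+ control. The call of Taf9b was lost without Thy1+ control replicate 1 (-0.44), Thy1+ control replicate 3 (FDR = 0.0561) or c-Kit+ control replicate 2 (-0.49, FDR = 0.0699), whereas Taf4b and Taf7l were called in all 6 fits that left out 1 library. The germ-cell paralogs had a median log2 fold change of -0.61 and the general members one of -0.28, against 0.03 for all genes.

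Tbpl1 was the germ-cell paralog that was not called. Its Thy1+ control libraries had 49.2, 59.7 and 53.8 CPM and its c-Kit+ control libraries 60.1 to 66.2 CPM, groups that did not overlap by a narrow gap (-0.18, SE 0.10, FDR = 0.203). Taf9 (-0.28, FDR = 0.0739) and Tbp (-0.28, FDR = 0.0675) likewise did not overlap without passing the FDR. The Thy1+ libraries lay below all c-Kit+ libraries in 6 of 9 members, against 24.8% of all genes. Taf4 (-0.30, FDR = 0.127), Taf1 (-0.23, FDR = 0.129) and Taf7 (-0.14, FDR = 0.365) overlapped. With the replicate number as a block, Taf4 (FDR = 0.0370), Taf9 (FDR = 0.0164), Tbp (FDR = 0.0302) and Taf1 (FDR = 0.0212) also passed the FDR, all under the fold limit, where 18.9% of all genes did so with Thy1+ lower. When libraries were scaled to germ cell markers, which moved the median of all genes from 0.03 to 0.34, none of the 9 was called: Taf7l (-0.46), Taf4b (-0.36) and Taf9b (-0.27) were still lower, and the other 6 had log2 fold changes from 0.02 to 0.15. Beside these values, 13 of 35 tested somatic markers were called higher and 8 lower in Thy1+ than in c-Kit+ controls. The shares of all genes were 20.7% and 7.08%, and the part of the markers in the result was not tested.

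Among CKO libraries, Taf7l (-0.58, SE 0.18, FDR = 0.0407) and Taf9b (-0.57, SE 0.16, FDR = 0.0279) were called lower in Thy1+ than in c-Kit+ cells, where 5.03% of 17346 genes were. Thy1+ CKO libraries had 158, 263 and 173 CPM of Taf7l against 298 to 319.7 CPM in c-Kit+ CKO, and 86.4, 131 and 90.6 CPM of Taf9b against 152 to 166 CPM. These calls rested on few libraries. Both were lost in 5 of the 6 fits that left out 1 library, those without Thy1+ CKO replicate 1 (-0.42 and -0.44), Thy1+ CKO replicate 3 (-0.48 and -0.48), or c-Kit+ CKO replicate 1, 2 or 3 (FDR from 0.0677 to 0.121), and without Thy1+ CKO replicate 2 they were called together with Taf4b. With the FDR alone, Taf4b (-0.43, FDR = 0.0301) and Taf9 (-0.33, FDR = 0.0364) passed as well, which made 4 of 9 against 8.84% of all genes. Scaled by library size, Taf4b was called too (-0.51, FDR = 0.0197). In 8 of 9 members, all but Taf1, the Thy1+ CKO libraries lay below all c-Kit+ CKO libraries, as they did in 26.7% of all genes. Scaled to germ cell markers, with a median of all genes at 0.47 in place of -0.03, Taf7l (-0.15) and Taf9b (-0.13) were lower, the other 7 were above 0, and none was called. Here 13 of 35 tested somatic markers were called higher and 9 lower in Thy1+ cells, against 15.3% and 5.03% of all genes. Their part was not tested. The comparisons between populations share libraries with those between genotypes.

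**Figure D4:**
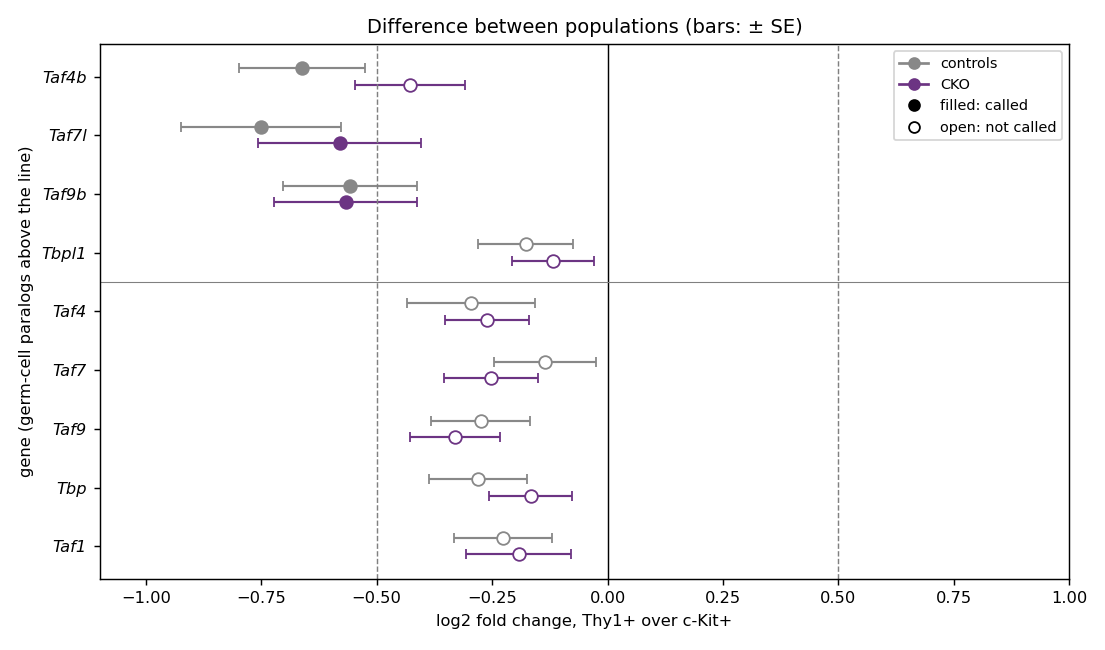
Log2 fold change of Thy1+ over c-Kit+ cells (horizontal axis) for each member in control and in CKO libraries, with bars of ± SE from fits without a replicate block; dashed lines mark the fold limit of 0.5. The filled points are Taf4b, Taf7l and Taf9b in controls and Taf7l and Taf9b in CKO, and all 18 points lie below 0; scaled to germ cell markers, the points other than Taf4b, Taf7l and Taf9b in controls and Taf7l and Taf9b in CKO lie above 0.

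The ratio of a germ-cell paralog to its general counterpart within a library, per kilobase of exon, does not depend on how libraries are scaled. It can still depend on the mix of cells in a library, which was not tested. The ratio is described here without a test, and how many other gene pairs separate the groups as fully was not computed. Tbpl1 over Tbp was 0.580, 0.651 and 0.655 in the c-Kit+ control and 0.704, 0.762 and 0.736 in the c-Kit+ CKO libraries of replicates 1, 2 and 3. In Thy1+ cells it was 0.655, 0.663 and 0.705 in control and 0.814, 0.756 and 0.713 in CKO libraries. In both populations every CKO library was above every control library in this ratio. The gap in Thy1+ cells was narrow, with the highest control library at 0.705 and the lowest CKO library at 0.713.

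Taf7l over Taf7 was 5.25, 7.25 and 6.10 in c-Kit+ control and 4.22, 4.57 and 4.86 in c-Kit+ CKO libraries, without overlap and in the other direction. In Thy1+ cells it was 3.23, 4.40 and 4.48 in control and 2.92, 4.35 and 3.46 in CKO libraries, which overlapped. Thy1+ control libraries were below all c-Kit+ control libraries. Taf4b over Taf4 was 1.84, 2.70 and 2.05 in c-Kit+ control and 1.90, 1.87 and 1.74 in c-Kit+ CKO libraries, and the groups overlapped. In Thy1+ cells it was 1.44 to 1.95 in control and 1.495 to 1.865 in CKO libraries. Taf9b over Taf9, whose denominator includes Ak6 exons, was 0.641 to 0.718 in c-Kit+ control and 0.650 to 0.685 in c-Kit+ CKO libraries, and 0.468 to 0.606 in Thy1+ control and 0.520 to 0.646 in Thy1+ CKO libraries. Genotypes overlapped in both populations, and the Thy1+ control lay below the c-Kit+ control. Taf7l exceeded Taf7 and Taf4b exceeded Taf4 in all 12 libraries, and Tbpl1 was below Tbp in all 12. The order of Taf9b and Taf9 cannot be read from these ratios, since the reads and the length of Ak6 are both in the denominator.

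**Figure D5:**
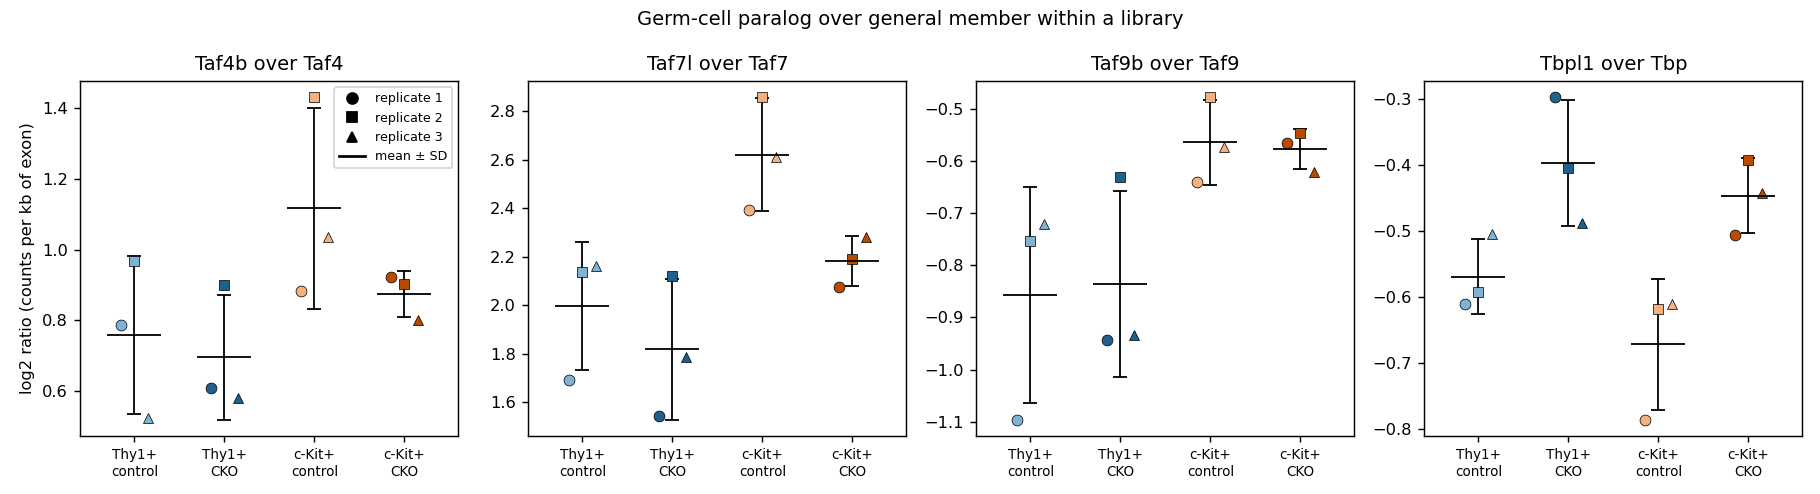
Log2 ratio of counts per kilobase of exon of each germ-cell paralog over its general counterpart within a library (vertical axes, which differ between panels and do not start at 0), for the 12 libraries in 4 groups. Symbols mark the replicate number and lines the mean ± SD of 3 libraries; Tbpl1 over Tbp is higher in every CKO library than in any control library of the same population, and Taf7l over Taf7 is lower in every c-Kit+ CKO library than in any c-Kit+ control library.

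Over the 12 libraries, the log2 levels of Taf7l correlated at 0.98 with those of Taf4b and at 0.97 with those of Taf1, and Taf9b at 0.95 with Taf9 and at 0.93 with Tbpl1. The lowest correlations among the 9 were those of Tbpl1 with Taf7 (0.50) and Taf4 (0.56). The genes most like Taf7l among 13435 others were Tpr (0.997), Syce1 (0.996), Dhx40 (0.995), Pi4ka (0.995) and Chek1 (0.995). Tpr encodes a nuclear pore protein, Syce1 a protein of the meiotic synaptonemal complex and Chek1 a checkpoint kinase. Those most like Taf4b were Ptpn2 (0.993), Uba6 (0.991), Mfn1 (0.990), Sfmbt1 (0.990) and Haus6 (0.989), those most like Taf9b were Kif2c (0.993), Nmt2 (0.993), Camsap1 (0.993), Cecr2 (0.992) and Phtf2 (0.992), and those most like Tbpl1 were Smc2 (0.964), Mbtd1 (0.963), Nol4 (0.961), Adgrg6 (0.958) and Ncl (0.956). These are Pearson correlations over libraries that fall into 4 groups and differ in their germ cell marker sums, and are given as a description.

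Taf7l2, a single-exon gene on chromosome 10 (116111664 to 116113917) named after Taf7l, was also lower in c-Kit+ CKO cells, and no window of 50 bases was shared between the exons of Taf7l2 and Taf7l. It had 20.2, 32.0 and 23.8 CPM in c-Kit+ control and 9.65, 12.9 and 11.6 CPM in c-Kit+ CKO libraries, without overlap, and fell 2.32-fold (log2 fold change -1.21, SE 0.18, FDR = 0.000662). It was also called lower in Thy1+ than in c-Kit+ control libraries (-0.82, SE 0.25, FDR = 0.0304), a call lost without Thy1+ control replicate 1 or 3 or c-Kit+ control replicate 2 or 3. In Thy1+ CKO against control it was called with the replicate block (-0.77, SE 0.12, FDR = 0.000227) and not without it (FDR = 0.354). Between CKO populations, where Taf7l was called, Taf7l2 was not (-0.44, FDR = 0.15), and its groups overlapped. Its log2 level correlated at 0.97 with that of Taf7l over the 12 libraries.

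The other genes of the machinery were read from lists. Of 9 other TFIID subunits, all tested, 2 were called lower and 0 higher in c-Kit+ CKO cells: Taf12, the histone-fold partner of the TAF4 proteins (35.2 ± 1.69 CPM in control, 24.4 ± 0.832 CPM in CKO, log2 fold change -0.59, FDR = 0.000675), and Taf5, a WD40-repeat subunit (-0.50, FDR = 0.00125), whose call was lost in 4 of 6 fits that left out 1 library, namely c-Kit+ control replicate 2 or 3 or c-Kit+ CKO replicate 2 or 3 (-0.45 to -0.50), by library size (-0.49) and in the fit of all 12 libraries (-0.45). The share of all genes called lower was 7.41% here, 7.08% between control and 5.03% between CKO populations, against which this list and the lists that follow can be read. All 9 log2 fold changes were below 0, with a median of -0.24, as were those of 8401 of 17134 genes. Between control populations 1 of the 9 was called, Taf10 (44.1 ± 5.56 CPM in Thy1+, 66.3 ± 8.11 CPM in c-Kit+, log2 fold change -0.56, FDR = 0.0106), a call lost without Thy1+ control replicate 1 (-0.48), and with the replicate block Taf12 as well (-0.51, FDR = 0.00670). None of the 9 was called in the other comparisons.

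Of 7 TBP partners and regulators, 5 were tested. Btaf1, an ATPase that removes TBP from DNA, fell in c-Kit+ CKO cells (206 ± 32.6 to 142 ± 5.78 CPM, log2 fold change -0.59, FDR = 0.00147), a call lost without c-Kit+ control replicate 2 (-0.47). Tbpl2, the oocyte paralog of Tbp, had 0 counts in all 12 libraries, and Gtf2a1l, the germ-cell paralog of the TFIIA subunit gene Gtf2a1, had 0 to 12 counts a library. Gtf2a1 itself was not called in c-Kit+ CKO cells (-0.06, FDR = 0.455). Of 15 other general factors, all tested, Gtf2h2, a TFIIH subunit (53.4 ± 3.97 to 36.0 ± 1.24 CPM, -0.63, FDR = 0.000438), and Gtf2f1, the larger TFIIF subunit (233 ± 11.8 to 171 ± 13.5 CPM, -0.50, FDR = 0.000648), were called lower in c-Kit+ CKO cells, the latter lost without c-Kit+ control replicate 3 or c-Kit+ CKO replicate 2 (-0.46 and -0.45), by library size (-0.49) and in the fit of all 12 libraries (-0.45). Gtf2f2, the smaller TFIIF subunit, was called lower in Thy1+ than in c-Kit+ controls (48.2 ± 6.89 against 69.5 ± 7.64 CPM, -0.50, FDR = 0.0176), lost in the fits without Thy1+ control replicate 1 or 3 or c-Kit+ control replicate 1 or 2. The 15 had medians of -0.18 between genotypes in c-Kit+ cells and -0.27 between control populations.

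Of 6 SAGA subunits, which share TAF9, Supt3 was called lower in c-Kit+ CKO cells (23.3 ± 4.08 to 16.8 ± 0.788 CPM, -0.53, FDR = 0.00999), lost without c-Kit+ control replicate 2 (-0.40) and in the fit of all 12 libraries (-0.47), and Taf6l in Thy1+ against c-Kit+ CKO cells (16.9 ± 2.65 against 24.9 ± 1.58 CPM, -0.51, FDR = 0.0266), lost in all but 1 of the 6 fits that left out a library (FDR up to 0.110), the one without Thy1+ CKO replicate 2. Of the 4 TAFs of RNA polymerase I, Taf1b fell in c-Kit+ CKO cells (41.19 ± 6.62 to 24.95 ± 3.11 CPM, -0.78, FDR = 0.00142) and the other 3 were not called. Scaled to germ cell markers, none of these genes was called other than Taf7l2 in c-Kit+ CKO cells (-0.89), and each log2 fold change was still below 0. Taf1b (-0.47, FDR = 0.0158) and Btaf1 (-0.27, FDR = 0.0499) passed the FDR of edgeR's quasi-likelihood test there, under the fold limit, and the rest did not pass it. In the list of haploid germ cell genes, which spermatids express, Prm1 had 0.182 to 0.456 CPM and Tnp1 0.700 to 1.02 CPM as group means, and Prm2 at most 0.155 CPM. Of these 5 genes, 1 to 3 had enough counts to be tested in a comparison, and none was called.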

How the data were processed

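RNA-seq of 12 libraries was analysed. ChIP-seq samples of the series were not analysed here. The authors deposited raw counts for each gene, not normalised. Per the labels and the study's methods, the authors trimmed paired-end reads with Trimmomatic 0.39, aligned them to mm10 with HISAT2 2.1.0 and counted them on RefSeq exons with featureCounts (version 2.0.3 in the file header), without options for strand, fragments or multi-mapping reads. Reads of overlapping genes on opposite strands can therefore not be told apart by strand. Between 65.6% and 69.5% of counts from 1 to 19 were even, as happens when a fragment adds both of its reads, and there are then fewer independent fragments than counts. IDs were matched to symbols for 25275 of 27179 genes with a RefSeq table, and the 1904 without one hold 0.511% to 0.776% of counts. The deposited exon lengths were used for RPKM.

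Counts were tested with edgeR 4.0.16 in R 4.3.3 (quasi-likelihood F test, TMM, filterByExpr, Benjamini-Hochberg adjustment over all genes tested), on the libraries of each comparison, and on all 12 for the interaction. Calls needed FDR under 0.05 together with a log2 fold change beyond 0.5 in either direction (interaction: FDR only). SE was derived from the F statistic. CPM and RPKM used TMM factors over 12 libraries. Ratios used a prior of 0.5 counts. The script was tested on simulated data. The members and gene lists were chosen with earlier results of these data known. Named genes are the members, list genes called in a comparison or else the first 3 of a list, and the 5 genes most correlated with each germ-cell paralog (mean log2 CPM of at least 1). Alternatives were the edgeR exact test, DESeq2 1.42.0, its size factors, library size, germ cell marker scaling, no filter, at least 1 CPM in 3 libraries, 1 fit of all 12, no minimum fold, a replicate block and leaving out each library; for ratios, a prior of 2 counts and no length division. The pairing comes from replicate numbers in the labels and the data. Deviations of same-numbered libraries correlated at 0.266 to 0.490 in Thy1+, 0.101 to 0.125 in c-Kit+ (near the limit of 0.1) and 0.134 to 0.298 between controls. These comparisons met the limit and are called paired. Between CKO populations the correlations were 0.0211 to 0.204, which did not meet it. The main fits used no block in any comparison, so that the pairing enters only in the fits named as blocked. Libraries of a group differed by more than counting error.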

Additional observations from a re-analysis of the deposited data

How the results depend on the processing

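The replicate block raised the number of members called in Thy1+ CKO against control from 0 to 1 and changed no other member call in the paired comparisons; between CKO populations, where the pairing limit was not met, the blocked fit called 2 members, as without it. Scaling to germ cell markers called 1 member in place of 2 between c-Kit+ genotypes, 0 in place of 3 between controls and 0 in place of 2 between CKO populations. With no minimum fold, 6 members passed between c-Kit+ genotypes and 4 between CKO populations. Fits without 1 library called 0 to 3 members between CKO populations, 2 to 3 between controls, 2 between c-Kit+ genotypes, and 0 in Thy1+ and the interaction. Germ cell marker scaling turned signs, to 0.0923 (Taf4b), 0.15 (Taf4), 0.28 (Taf9b), 0.28 (Taf9), 0.31 (Tbp) and 0.0913 (Taf1) in Thy1+ genotypes; to 0.14 (Taf9b), 0.15 (Taf9), 0.23 (Tbpl1) and 0.0045 (Tbp) in c-Kit+ genotypes; to 0.0161 (Taf4), 0.15 (Taf7), 0.0164 (Taf9), 0.13 (Tbpl1), 0.0190 (Tbp) and 0.0745 (Taf1) between controls; and to 0.0323 (Taf4b), 0.23 (Taf4), 0.23 (Taf7), 0.14 (Taf9), 0.37 (Tbpl1), 0.32 (Tbp) and 0.27 (Taf1) between CKO populations. Of the called genes, this scaling left 9.28% lower in place of 33.3% between c-Kit+ genotypes, 3.92% in place of 25.5% between controls (36.3% by library size) and 1.74% in place of 24.7% between CKO populations (36.7% by library size). By its construction this scaling holds the 7 germ cell markers level, also where genotype or population changed the markers themselves. In the interaction it gave -0.0796 (Taf7), -0.14 (Taf9b) and -0.13 (Taf9), DESeq2 gave -0.0484 (Taf9b) and -0.0055 (Taf9), its size factors -0.0487 (Taf9b) and -0.0054 (Taf9), and no filter -0.0089 (Taf9b). Tbpl1 in Thy1+ was -0.0125 by library size. Without 1 library, signs also turned in Thy1+ genotypes for Taf9b (-0.38 to 0.0428) and Tbpl1 (-0.0487 to 0.11), and in the interaction for Taf4 (-0.15 to 0.11), Taf7l (-0.44 to 0.11), Taf7 (-0.0715 to 0.23), Taf9b (-0.23 to 0.25), Taf9 (-0.13 to 0.17), Tbpl1 (-0.20 to 0.0252) and Taf1 (-0.20 to 0.11). None of these was called, and the cause of the turned signs was not tested. The exact test, DESeq2 and the other filters gave the main number of called members in every comparison in which they were run. The differences in within-library ratios moved by less than the spread between libraries when 1 library was left out. Their sign turned between genotypes for Taf4b over Taf4 in Thy1+ cells (-0.18 to 0.0404). It also turned for Taf9b over Taf9 in Thy1+ (-0.0983 to 0.0887) and c-Kit+ cells (-0.0516 to 0.0297). The remaining ratio alternatives could hardly move a difference, since length cancels between groups and a prior of 2 is small beside these counts. Without a block and with 3 libraries a group, differences under the fold limit were poorly resolved between Thy1+ genotypes, where libraries varied most. The biological coefficient of variation estimated by edgeR was 20.9% there and 12.1% between c-Kit+ genotypes. With the replicate block it was 8.3% and 9.83%.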
